A study of Mus musculus with 12 samples.

Results

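Mouse embryonic stem cells carrying a hairpin against the long noncoding RNA TUNA were compared at day 4 and day 2 after transduction. The comparison used 3 day 4 and 3 day 2 libraries of the 12 in the series, and every gene that reached 10 normalized counts in at least 3 of these 6 libraries. That rule kept 8017 of the 37477 rows in the deposited table. The cells were of the CCE line, grown with serum and with LIF, a cytokine that keeps stem cells from differentiating. All groups carried a pLKO.1-puro lentivirus and were kept in puromycin from the day after transduction. The groups were a control hairpin at day 2 and the TUNA hairpin at day 2, day 4 and day 6, with 3 libraries of total RNA in each. No day 4 control was analysed here, so an effect of the hairpin and an effect of 2 more days in culture and selection cannot be told apart. The labels do not say that replicates were separate cultures, and the p-values then reflect only how far these libraries differ from one another, possibly for technical reasons.

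TUNA (gene symbol Tunar) lies in a noncoding locus that has been linked to pluripotency and to neural commitment of stem cells. Cells short of oxygen stabilise hypoxia-inducible factor, which raises genes for glucose uptake, glycolysis, lactate export and collagen hydroxylation. Growing stem cells also make many ribosomes, and the small nucleolar RNAs that guide ribosomal RNA modification are mostly cut from the introns of host genes.

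The TUNA row of the table, 2810011L19Rik, was listed at 0 (1 normalized count or less) in 12 of 12 libraries, so these values give no check of the knockdown. All 10 stem cell markers were detected, with a summed level of 2892 to 3066 normalized counts at day 2 and 2721 to 2888 at day 4. Of 8 fibroblast markers, 6 were at 0 in all 6 libraries (Col1a1, Col1a2, Col3a1, Dcn, Lum and Postn). The 8 endoderm markers summed to 2.27 to 8.96 normalized counts at day 2 and 15.0 to 20.5 at day 4, with Sox17, Afp, Ttr and Apoa1 at 0. The 4 neural markers summed to 11.4 to 15.7 at day 2 and 16.9 to 22.4 at day 4, with Neurog2 at 0. Each library held 3522149 to 5652962 recovered reads, of which 64.2% to 76.9% fell in 3 rows (Rnu3a, Tex14 and LOC100503663). That left 936427 to 2024934 reads for all other rows. The first principal component, with 43.5% of the variance, separated the days. The second, with 22.6%, set day 4 replicate 3 (at -34.9) apart from day 4 replicates 1 and 2 (at 20.6 and 8.83). Rnu2, a spliceosomal RNA, stood at 2702 normalized counts in that library and at 16755 to 19853 in the other 5. In bulk samples, fewer cells of a type and less RNA per cell cannot be told apart.

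Between day 2 and day 4 the low oxygen genes Bnip3 and Ddit4, several glycolytic enzymes and the cell cycle gene Ccng2 rose, while Nop56, Ncl, Rps12 and Mir290 fell by more than 10-fold. With limma over all genes (Benjamini-Hochberg adjusted p under 0.05), 289 genes were higher at day 4 (3.6% of those tested) and 384 were lower (4.79%), together 8.39%. Without day 4 replicate 3 the shares were 3.41% and 5.83%. A log2 change of at least 1 was seen in 154 of the higher and 156 of the lower genes. The median log2 change of all genes tested was -0.01, and 49.1% of the changes were positive. Of the called genes, 95 higher and 135 lower ones kept the call with each of the 6 libraries left out in turn. By limma-voom on the recovered reads, 104 were higher (1.3%) and 101 lower (1.26%), of which 102 and 100 were among the calls above. The number of higher genes was 144 to 178 without day 2 replicate 2 or 3 or day 4 replicate 1 or 2, and that of lower genes 188 to 227 without day 2 replicate 1, 2 or 3 or day 4 replicate 2. The day 4 libraries lay above all day 2 libraries in 14.5% of the genes tested and below them in 14.8%. Of 100 genes that reached 10 normalized counts at day 4 only, 35 were called higher.

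**Figure D1:**
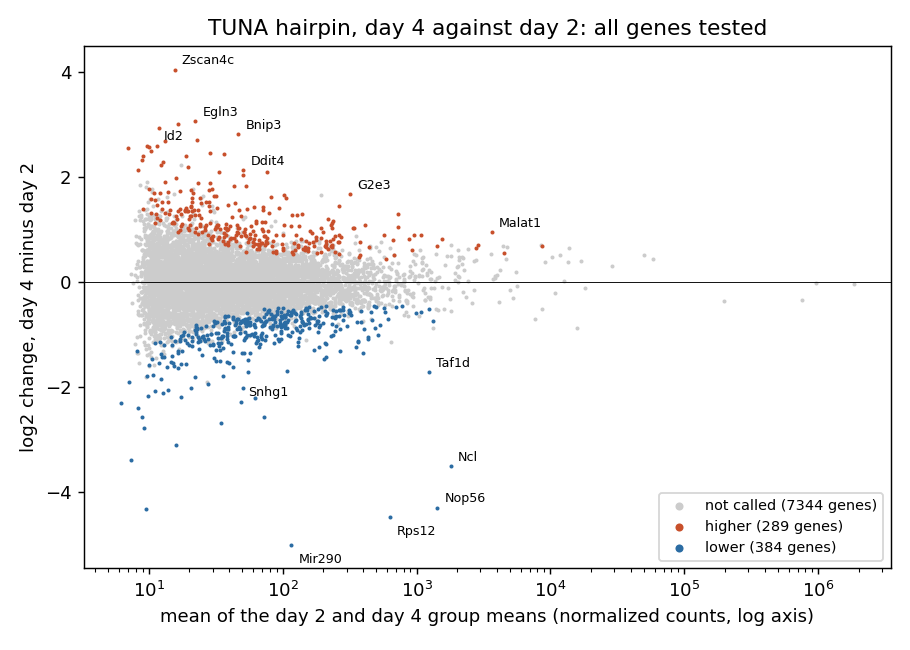
Log2 change from day 2 to day 4 (vertical axis) against the mean of both group means in normalized counts (horizontal log axis) for the 8017 genes tested. Orange points are the 289 genes called higher, blue points the 384 called lower, and Nop56, Ncl, Rps12 and Mir290 stand below all other genes of similar level.

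Genes of the low oxygen response had the highest median change of the lists with at least 14 tested members. Of 37 listed genes outside glycolysis, 23 passed the filter. Of these, 11 were higher (47.8%, against 3.6% of all genes) and 1 was lower. The median log2 change was 1.07, against -0.01 for all genes. Egln3, Ppp1r3c and Bhlhe40 reached 10 normalized counts only at day 4, so they had to be higher there. Among the other 20 members, 8 were higher, with a median of 0.79. With each library left out in turn, 8 of the 11 rises kept the call in every case. The others were Bhlhe40, Mxi1 and Ppp1r3c, with adjusted p of up to 0.181, 0.0938 and 0.0684.

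The promoter letters of Bnip3, P4ha1 and Ddit4 are printed because these were the 3 members called higher with the smallest p that had a RefSeq promoter window. Each run is the 250 bases before the RefSeq start in GRCm38.p6, read 5′ to 3′ on the gene's strand. Capitals mark ACGTG or GCGTG, the core letters of the hypoxia response element, or their reverse complements CACGT and CACGC; matches that overlap run together. Bnip3 lies at chr7:138909507-138909756 (minus strand), P4ha1 at chr10:59323046-59323295 (plus strand) and Ddit4 at chr10:59951771-59952020 (minus strand).
Bnip3: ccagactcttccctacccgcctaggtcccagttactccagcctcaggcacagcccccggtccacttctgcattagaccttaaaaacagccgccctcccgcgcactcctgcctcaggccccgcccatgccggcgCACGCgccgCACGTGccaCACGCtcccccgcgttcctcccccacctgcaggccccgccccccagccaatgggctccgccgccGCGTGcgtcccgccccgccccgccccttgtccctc
P4ha1: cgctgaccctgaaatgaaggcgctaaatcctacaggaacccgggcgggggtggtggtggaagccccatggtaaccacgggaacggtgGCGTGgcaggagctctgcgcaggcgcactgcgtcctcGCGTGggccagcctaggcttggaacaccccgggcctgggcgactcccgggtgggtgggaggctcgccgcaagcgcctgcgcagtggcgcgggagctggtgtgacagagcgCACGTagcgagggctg
Ddit4: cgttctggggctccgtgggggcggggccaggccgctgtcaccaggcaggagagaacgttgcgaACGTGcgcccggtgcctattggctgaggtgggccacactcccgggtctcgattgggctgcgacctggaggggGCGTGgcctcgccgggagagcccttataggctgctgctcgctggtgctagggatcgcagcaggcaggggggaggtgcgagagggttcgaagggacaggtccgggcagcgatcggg
The Bnip3 window held 5 matches, at positions -117, -108, -107, -99 and -35 from the start. P4ha1 held 3, at -163, -126 and -16, and Ddit4 held 2, at -187 and -115. Across the 44 low oxygen and glycolysis members tested, 19 were called higher and 16 of these had a window. ACGTG on either strand was found in 11 of the 16 (68.75%), in 7 of 22 members not called higher (31.8%), in 23.8% of the 5176 tested genes with a window and in 16.6% of all 27025 windows. ACGTG or GCGTG was found in 81.25%, 72.7%, 61.0% and 38.6% of the same sets. A match is a description of these letters and not a measured binding site.

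Bnip3, a mitochondrial protein that promotes mitophagy and cell death, stood at 13.4, 7.95 and 11.4 normalized counts in the day 2 libraries and at 91.9, 92.7 and 62.6 in the day 4 libraries. Every day 4 library lay far above every day 2 library, replicate 3 being the lowest of the 3. The group means differed 7.55-fold, with a log2 change of 2.81 ± 0.28 (SE) and an adjusted p of 2.07e-05 by limma. The mean was 9.60 in the control, 10.9 at day 2 and 12.1 at day 6. Ddit4, an inhibitor of mTORC1 that stress induces, followed with 20.1, 13.6 and 19.9 at day 2 and 102, 95.7 and 53.3 at day 4. Its groups did not overlap either, and its log2 change was 2.13 ± 0.27 (adjusted p = 0.000169 by limma).

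Both oxygen sensing prolyl hydroxylases that were called, which mark hypoxia-inducible factor for destruction and are themselves induced by it, rose. Egln3 went from 4.48, 2.27 and 5.70 normalized counts at day 2 to 41.8, 39.9 and 38.9 at day 4, so all 3 day 2 libraries lay below the filter. Egln1 stood at 13.3, 15.8 and 8.55 at day 2 and at 49.7, 35.3 and 45.8 at day 4, again without overlap. Their log2 changes were 3.06 ± 0.53 (adjusted p = 0.00192) and 1.74 ± 0.31 (adjusted p = 0.0026) by limma.

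Plod2 and P4ha1, which hydroxylate collagen, were also higher. Plod2, a lysyl hydroxylase, stood at 49.5, 44.9 and 51.3 normalized counts at day 2 and at 171, 176 and 123 at day 4. P4ha1, a catalytic subunit of prolyl 4-hydroxylase, stood at 62.5, 58.9 and 82.4 at day 2 and at 179, 161 and 155 at day 4. In both genes the lowest day 4 library was above the highest day 2 library. The log2 changes were 1.65 ± 0.19 (adjusted p = 8.56e-05) and 1.28 ± 0.19 (adjusted p = 0.000573) by limma. Ero1l, which oxidises new disulfide bonds in the endoplasmic reticulum, rose by a log2 change of 1.08 (adjusted p = 0.00293), and the mitochondrial protein gene Fam162a by 1.53 (adjusted p = 0.00857).

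Not all known targets passed. Vegfa, the vessel growth factor, stood at 16.8, 11.4 and 18.5 normalized counts at day 2 and at 47.0, 42.6 and 40.3 at day 4. The 3 and 3 values did not overlap, but the log2 change of 1.44 ± 0.50 had an adjusted p of 0.0864 by limma. Kdm3a, a histone demethylase, had a log2 change of -0.26 (adjusted p = 0.214). Tfrc, the transferrin receptor, fell (log2 change -0.73 ± 0.12, adjusted p = 0.00102).

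Several glycolysis genes rose, among them a glucose importer and a lactate exporter. Of 29 listed genes 21 were tested, 8 were higher (38.1%, against 3.6% of all genes) and 1 was lower. Of the 21 changes 20 were positive, with a median log2 change of 0.62. All 8 rises kept the call with each library left out, and limma-voom called the same number higher. Slc2a1, the glucose transporter GLUT1, stood at 494, 504 and 459 normalized counts at day 2 and at 842, 819.6 and 855 at day 4. The 2 groups were each tight and well separated, with a log2 change of 0.79 ± 0.13 (adjusted p = 0.00144 by limma). Slc16a3, the lactate exporter MCT4, had the largest change of the list, from 16.8, 23.8 and 17.1 at day 2 to 76.1, 86.5 and 81.7 at day 4. That is a 4.23-fold difference of means and a log2 change of 2.04 ± 0.29 (adjusted p = 0.000332 by limma).

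Between these steps, Tpi1, which interconverts the triose phosphates, stood at 151, 126 and 145 normalized counts at day 2 and at 419, 403 and 331 at day 4. Pgk1, the first ATP-forming enzyme of the pathway, stood at 146, 129 and 121 at day 2 and at 318, 312 and 285 at day 4. Ldha, which turns pyruvate into lactate, stood at 704, 638 and 677 at day 2 and at 1188, 1209 and 1367 at day 4. None of these 3 enzymes had overlapping groups, and day 4 replicate 3 was lowest for Tpi1 and Pgk1 but highest for Ldha. Their log2 changes were 1.44 ± 0.15, 1.20 ± 0.15 and 0.90 ± 0.14 (adjusted p = 2.15e-05, 0.000145 and 0.000675 by limma). The phosphofructokinase genes Pfkp and Pfkl, for the committing step, rose by log2 changes of 1.41 and 1.02, and Aldoa, the aldolase, by 0.85 (adjusted p = 0.000528, 0.00459 and 0.00576). Pgm2, a phosphoglucomutase-family gene among the 15 largest rises, went from 28.8, 18.0 and 22.6 to 85.0, 93.1 and 72.3.

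Some steps did not follow. Hk2, the hexokinase of the first step, was lower, at 1196, 1168 and 1197 normalized counts at day 2 and 708, 843 and 801 at day 4. Its groups did not overlap, and its log2 change was -0.60 ± 0.14 (adjusted p = 0.013 by limma, and 0.0539 without day 2 replicate 3). Eno1, enolase, had a log2 change of 0.06 (adjusted p = 0.86), Gapdh one of 0.44 (adjusted p = 0.241) and Pkm2, pyruvate kinase, one of 0.53 (adjusted p = 0.0594). Slc2a3, the glucose transporter GLUT3, had a log2 change of 0.19 (adjusted p = 0.456). The oxidative phosphorylation list had 0 called members of 61 tested by limma and 0 by limma-voom. At an unadjusted p under 0.05, 4 were higher and 2 lower. Its median of -0.02 turned positive, to 0.02 at most, under the other scalings tried.

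**Figure D2:**
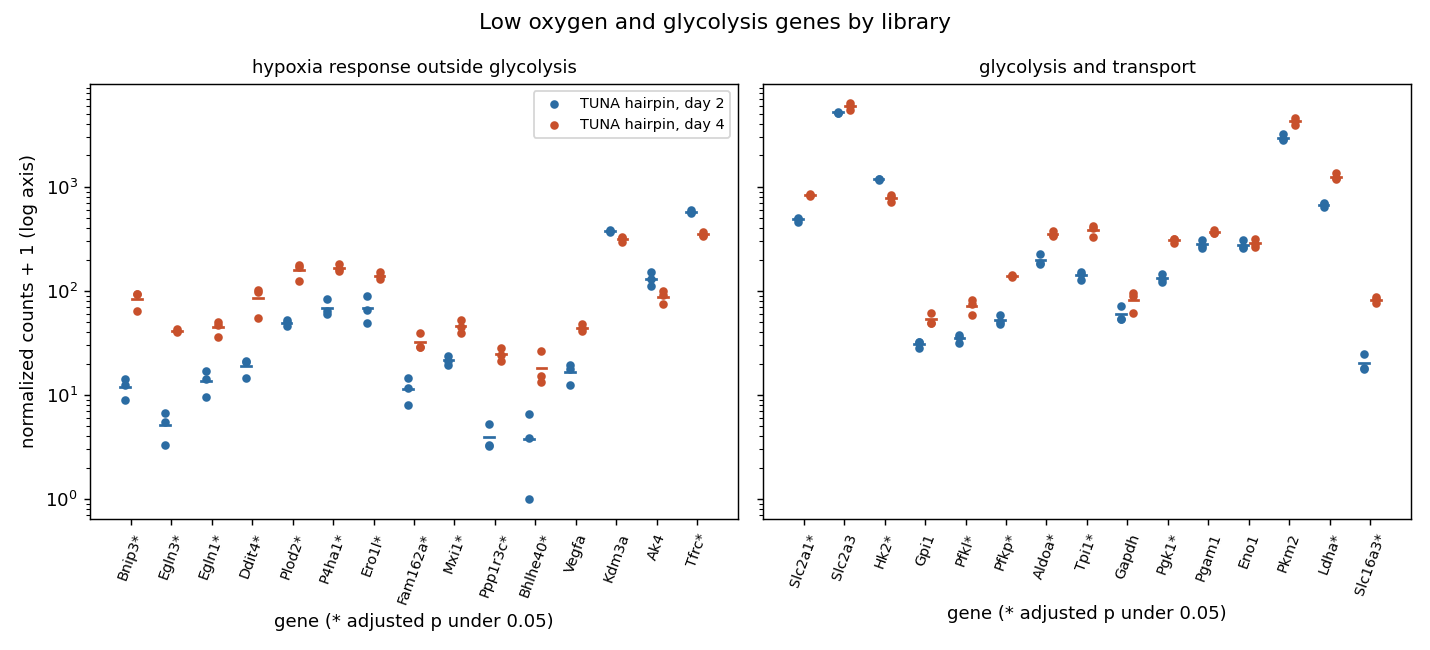
Normalized counts plus 1 (log axis) of 15 low oxygen genes (left) and 15 glycolysis and transport genes (right), with 1 point per library and a bar at the group mean, day 2 in blue and day 4 in orange. An asterisk marks adjusted p under 0.05; Bnip3 lies at 7.95 to 13.4 normalized counts at day 2 and 62.6 to 92.7 at day 4, while Hk2 and Tfrc are lower at day 4.

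Several of the large falls were in genes that host small nucleolar RNAs, most of them ribosome genes. Nop56, part of the particles that 2′-O-methylate ribosomal RNA, stood at 1568, 3551 and 3073 normalized counts at day 2 and at 115, 134 and 139.8 at day 4. Ncl, nucleolin, an abundant nucleolar protein that takes part in ribosomal RNA synthesis, stood at 3866, 3155 and 2921 at day 2 and at 237, 276 and 359.7 at day 4. The 3 and 3 libraries were far apart for both, Nop56 falling 21.1-fold and Ncl 11.4-fold between group means. Their log2 changes were -4.31 ± 0.25 and -3.52 ± 0.18 (adjusted p = 1.63e-08 and 4.21e-09 by limma). The day 2 TUNA hairpin libraries were the ones that stood apart, since the control had means of 169 for Nop56 and 487 for Ncl, and day 6 means of 137 and 420.2.

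Rps12, a protein of the small ribosomal subunit, stood at 1457, 1178 and 988 normalized counts at day 2 and at 53.9, 39.8 and 65.7 at day 4, a 22.7-fold difference of means. Its control libraries were spread over 74.1 to 1263, so its log2 change of -4.49 had a wide SE of 0.61 (adjusted p = 0.000267 by limma). Taf1d, a subunit of the RNA polymerase I selectivity factor, stood at 1536, 2142 and 2030.5 at day 2 and at 622, 541 and 550.0 at day 4 (log2 change -1.72 ± 0.19, adjusted p = 4.12e-05). Snhg1, a noncoding host transcript, stood at 72.2, 87.6 and 84.3 at day 2 and at 19.9, 13.5 and 14.8 at day 4 (log2 change -2.28 ± 0.41, adjusted p = 0.00227). None of these genes overlapped between day 2 and day 4. The Snhg1 control libraries, at 16.2, 36.7 and 88.6, reached from its day 4 level to its day 2 level. For Taf1d the control mean was 1205 and the day 6 mean 1466, both between day 4 and day 2, whereas for Rps12 the day 6 mean was 48.0.

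**Figure D3:**
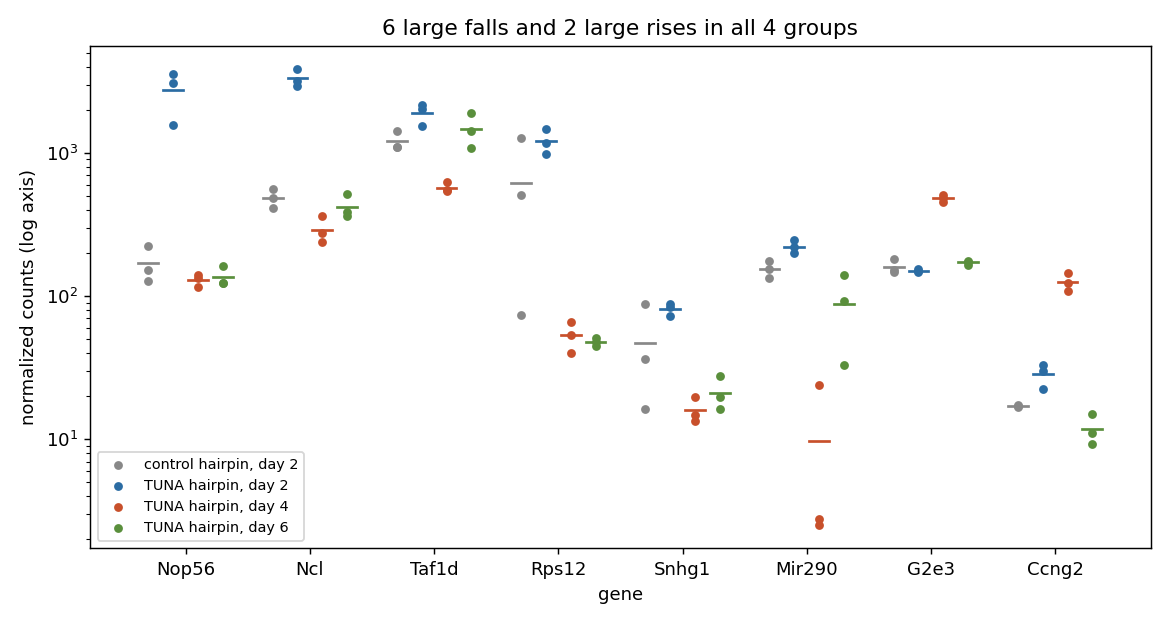
Normalized counts (log axis) of 6 genes with large falls and 2 with large rises in all 4 groups, with 1 point per library and a bar at the group mean. Nop56 and Ncl are high at day 2 of the TUNA hairpin alone, and G2e3 and Ccng2 are high at day 4 alone; Mir290 spans 2.51 to 23.9 at day 4.

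Intronic reads of a small nucleolar RNA and reads of its host could not be separated in these counts. In the GENCODE M21 annotation (GRCm38), Ncl contains 3 small nucleolar RNA genes, of which 2 had a row, Nop56 contains 5, of which 2 had a row, and Taf1d (8) and Rps12 (3) contained none with a row. Snora75, inside Ncl, stood at 32661, 23809 and 20926 normalized counts at day 2 and at 35440, 36401 and 24018 at day 4. Its groups overlapped, and its change did not pass the test (log2 change 0.31 ± 0.30, adjusted p = 0.574). Snord22, inside Snhg1, had a log2 change of 0.45 ± 0.27 (adjusted p = 0.338). Across 53 tested hosts 7 were lower by limma (13.2%, against 4.79% of all genes), with a median log2 change of -0.03.

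The ribosome biogenesis list, which holds Nop56, Ncl and Taf1d as well, had lower members also outside the hosts. Of 64 tested, 15 were lower (23.4%, against 4.79% of all genes) and 0 were higher. Of the 64 changes 60 were negative, and the median log2 change was -0.40. Without the hosts on the list, 12 of 58 were lower and the median was -0.40. Over the whole list, 24 were lower and 0 higher at an unadjusted p under 0.05, and 5 were lower and 0 higher by limma-voom. The count fell to 7 to 9 without day 2 replicate 1, 2 or 3 or without day 4 replicate 2. Ncl, Nop56, Taf1d, Rrp12, Bysl and Polr1b kept the call with each library left out, the last 3 of which are not hosts. Rrp12, a pre-ribosome export factor, had a log2 change of -1.31 ± 0.21 (adjusted p = 0.0011), Bysl, a small subunit processing factor, one of -1.19 ± 0.24 (adjusted p = 0.0057) and Polr1b, a catalytic subunit of RNA polymerase I, one of -1.12 ± 0.22 (adjusted p = 0.00462). The other 9 had adjusted p of 0.0519 to 0.193 without the libraries whose removal ended their calls. Urb1, a nucleolar ribosome biogenesis factor named among the 15 largest falls, stood at 77.9, 87.1 and 76.7 normalized counts at day 2 and at 39.5, 20.7 and 27.1 at day 4. By contrast, 5 of the 74 cytosolic ribosomal protein genes were lower (6.76%) and 2 higher (2.7%), near the 4.79% and 3.6% of all genes. Their median was 0.02.

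Mir290 had the largest fall on the log2 scale. The row matches RefSeq Mir290a, the first hairpin of a microRNA cluster that embryonic stem cells express strongly. Its mature products are shown because this was the largest change, with other arms of the cluster for comparison of their seeds (bases 2 to 8, in capitals), all from RefSeq on GRCm38.p6. The 290a-5p arm lies at chr7:3218639-3218660 and the 290a-3p arm at chr7:3218674-3218697, both on the plus strand.
mmu-miR-290a-5p: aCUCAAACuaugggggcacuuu
mmu-miR-292a-5p: aCUCAAACugggggcucuuuug
mmu-miR-293-5p: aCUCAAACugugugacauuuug
mmu-miR-290a-3p: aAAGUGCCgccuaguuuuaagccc
mmu-miR-291a-3p: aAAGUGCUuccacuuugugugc
mmu-miR-294-3p: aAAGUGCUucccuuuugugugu
mmu-miR-295-3p: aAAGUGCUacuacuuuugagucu
The first 3 arms share the seed CUCAAAC, and the last 3 share AAGUGCU. Mir290 stood at 221, 199.8 and 246 normalized counts at day 2 and at 2.51, 2.77 and 23.9 at day 4. Day 4 replicate 3 was the highest of the day 4 libraries but still well below every day 2 library. The log2 change was -5.01 ± 0.56 (adjusted p = 4.75e-05 by limma) with all libraries and -5.93 without that one. The control had a mean of 155 and day 6 one of 88.4. Rows of the other cluster members were listed at 0 in all 12 libraries. The Mir290 row is that of the hairpin gene, and whether levels of the mature products changed was not tested.

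Histone genes had positive changes throughout, with a spread between the day 4 libraries. All 53 tested had a positive change, with a median log2 change of 0.69. Of them 19 were called higher (35.8%, against 3.6% of all genes). H2afy, among the 19, reached 10 normalized counts at day 4 alone. Against the day 2 mean, the list's median was 0.97, 0.71 and 0.33 in day 4 replicates 1 to 3, and 0.20, -0.02 and -0.18 in day 2 replicates 1 to 3. Without day 4 replicate 3, 31 were higher and the median was 0.82. Without day 2 replicate 2 or 3, or day 4 replicate 1 or 2, 6 to 8 were higher, and limma-voom called 4. H1f0, a linker histone of non-dividing cells, had no overlap, at 20.2, 19.3 and 28.5 normalized counts at day 2 and 68.4, 59.3 and 68.4 at day 4 (log2 change 1.51 ± 0.21, adjusted p = 0.000325). Hist1h1c, a linker histone gene of the main cluster, stood at 147, 152 and 139.6 at day 2 and at 466, 298 and 192 at day 4 (log2 change 1.03 ± 0.23, adjusted p = 0.0105). Near-identical copies may share reads among the clustered histone genes, and the sources used here do not give how the counting split them.

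Rows of small nucleolar RNAs, a set picked by symbol after values were seen, had changes of similar size. Of 42 tested, 5 were higher (11.9%, against 3.6% of all genes) and 40 had a positive change, with a median of 0.51. The day 4 medians were 0.90, 0.52 and 0.15 in replicates 1 to 3, in the same order as for the histones. The share of reads in the 3 dominant rows was 64.2% to 76.9% at day 4 and 72.7% to 74.5% at day 2. The part of these library differences in the histone result was not tested. Malat1, an abundant nuclear noncoding RNA, rose from 2403, 2619.9 and 2449 to 4377, 5099.7 and 4905 (log2 change 0.94 ± 0.16, adjusted p = 0.00171), with replicate 3 between the other two.

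**Figure D4:**
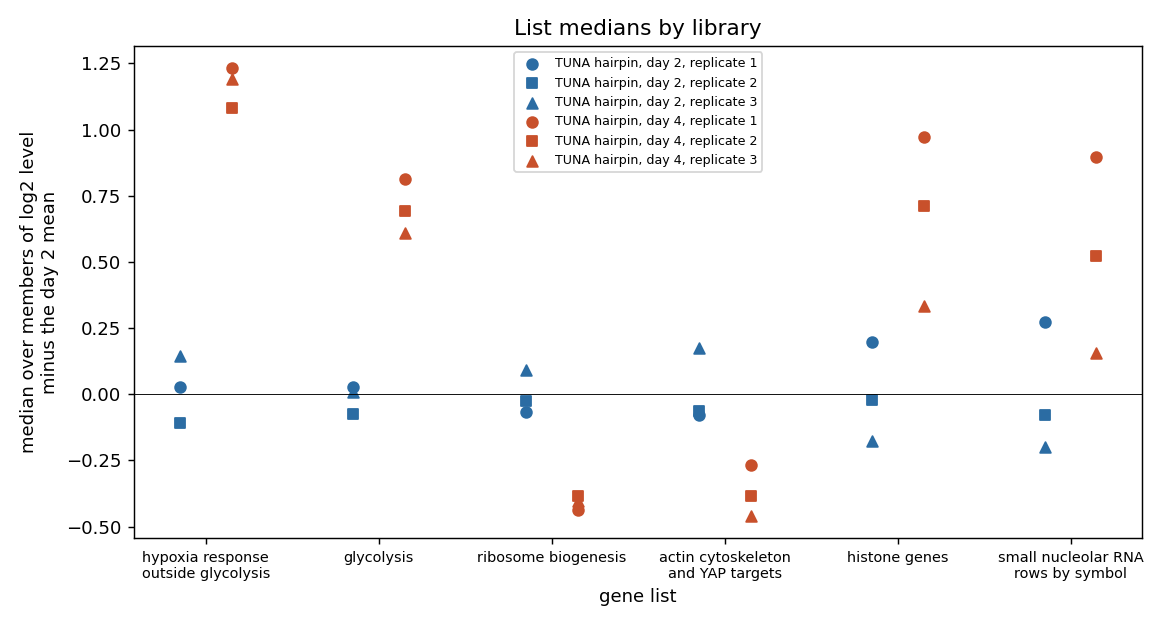
Median over the tested members of 6 lists of the log2 level minus the day 2 mean, with 1 symbol per library (circle, square and triangle for replicates 1, 2 and 3), day 2 in blue and day 4 in orange. The 3 day 4 medians lie close together for ribosome biogenesis and spread from 0.33 to 0.97 for histone genes, with replicate 3 lowest.

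Ccng2 and G2e3, of the cell cycle, were among the largest rises. Ccng2, an atypical cyclin linked to cell cycle arrest, stood at 32.9, 22.6 and 29.9 normalized counts at day 2 and at 123, 108 and 144 at day 4. G2e3, a ubiquitin ligase of the G2 and M phases, stood at 146, 155 and 149.9 at day 2 and at 451, 509.6 and 482 at day 4. Both had groups far apart, and their means at day 6 (11.8 and 172) and in the control (17.2 and 161) were far below day 4. The log2 changes were 2.10 ± 0.23 and 1.67 ± 0.13 (adjusted p = 4.12e-05 and 1.32e-06 by limma). Txnip, an inhibitor of thioredoxin and of glucose uptake, also rose (log2 change 1.17 ± 0.15, adjusted p = 0.000165).

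Among 27 tested p53 targets 6 were higher (22.2%, against 3.6% of all genes) and 1 was lower, with a median of 0.28. Pmaip1 (Noxa), a death-promoting BCL2 family member, stood at 41.8, 41.7 and 34.9 normalized counts at day 2 and at 124, 158 and 93.9 at day 4, without overlap (log2 change 1.61 ± 0.26, adjusted p = 0.00102). Ddit4, given above, is also on this list. The other 4 rises, Ercc5, Ccng1, Eda2r and Zmat3, had log2 changes of 0.56 to 0.97 and adjusted p of up to 0.0531, 0.109, 0.143 and 0.143 with 1 library left out. Bcl2l1 (BCL-XL), which protects from cell death, was lower (log2 change -1.01 ± 0.19, adjusted p = 0.00424). Bak1, which promotes cell death, was also called lower, with adjusted p of up to 0.127 with 1 library left out. Of 19 tested apoptosis regulators 2 were higher and 2 lower (10.5% each, against 3.6% and 4.79% of all genes).

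S phase genes numbered 47 tested, with a median of -0.14. Of them 1 was higher (2.13%) and 2 were lower (4.26%), near the 3.6% and 4.79% of all genes. Mitosis genes numbered 39, with 4 higher (10.3%) and a median of 0.04. Hmmr and Bub1, which act at the mitotic spindle and its checkpoint, were the 2 of these 4 that kept their calls with each library left out (log2 changes 0.67 and 0.67). Limma-voom called 0 mitosis genes. The ATF4 stress list, of 28 tested, had 3 lower (10.7%, against 4.79% of all genes). Cth, which makes cysteine by transsulfuration, stood at 135, 153 and 205 normalized counts at day 2 and at 36.5, 54.2 and 60.0 at day 4 (log2 change -1.70 ± 0.23, adjusted p = 0.000267). Slc7a3, a cationic amino acid transporter, was lower by a log2 change of -1.25 (adjusted p = 0.000618).

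Part of the pluripotency lists was lower at day 4, while the core factors did not pass the test. Of 27 naive pluripotency genes tested 5 were lower (18.5%, Mir290 among them), against 4.79% of all genes. Of 28 general ones 7 were lower (25%) and 1 was higher. The medians of the 2 lists were -0.16 and -0.27. By limma-voom, 1 naive and 1 general gene were lower. Pou5f1 (Oct4), the central factor, stood at 644, 698 and 673 normalized counts at day 2 and at 527, 531 and 429.9 at day 4, and its change did not pass (log2 change -0.44 ± 0.14, adjusted p = 0.0614). The groups nonetheless did not overlap, which was true of 14.8% of all genes in that direction. Sox2 (0.11, adjusted p = 0.652), Nanog (0.43, adjusted p = 0.117) and Fgf4 (-0.13, adjusted p = 0.621) did not pass either.

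Within these lists, Nr0b1 (Dax1), a repressor bound to Oct4 in stem cells, stood at 114, 81.7 and 89.8 normalized counts at day 2 and at 49.5, 39.7 and 34.2 at day 4 (log2 change -1.19 ± 0.23, adjusted p = 0.00437). L1td1, an RNA-binding protein of stem cells, stood at 236, 229 and 260.2 at day 2 and at 127, 136 and 133 at day 4 (log2 change -0.87 ± 0.13, adjusted p = 0.000618). Neither gene overlapped between days. Dnmt3a, a DNA methyltransferase of the formative state, and Mybl2 also kept their calls with each library left out (log2 changes -0.85 and -0.78). Limma-voom called L1td1 but not Nr0b1, Dnmt3a or Mybl2. Otx2 and Gbx2, factors of the epiblast and neural plate, had log2 changes of -1.21 and -1.20, with adjusted p of up to 0.116 and 0.104 with 1 library left out. The part of the neural marker sum, higher in each day 4 library than in any day 2 library, in these values was not tested. Of its 4 markers only Tubb3 reached 10 normalized counts in any of these libraries. The summed level of the whole neural list was 92.4, 84.1 and 72.1 at day 2 and 73.9, 77.9 and 84.2 at day 4. These groups overlapped. Of its 4 tested members 0 were higher and 2, Gbx2 and Mapt, were lower. Their list's median log2 change was -0.32. Mapt reached 10 normalized counts only at day 2 and so had to be lower.

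Outside the stem cell lists, Cubn, an endoderm endocytic receptor, stood at 2.24, 2.25 and 1.42 normalized counts at day 2 and at 23.4, 18.997 and 22.7 at day 4 (log2 change 2.94 ± 0.54, adjusted p = 0.00302). Zscan4c, of the 2-cell embryo state, stood at 1.12, 2.05 and 0 at day 2 and at 24.1, 34.5 and 31.8 at day 4 (log2 change 4.05 ± 0.59, adjusted p = 0.00051). Both passed the filter through day 4 alone and so had to be higher there. Zscan4c belongs to a family of near-identical copies, so its reads may be shared. It was the only 1 called of 4 tested genes on the 2-cell-like list (25%, against 3.6% of all genes). The other 3 had negative changes that were not called, and the list's median log2 change was -0.15. The endoderm marker sum given above was also higher in each day 4 library than in any day 2 library, and its part in the Cubn value was not tested. Of its 8 markers only Gata6 reached 10 normalized counts in any of these libraries. The summed level of the whole endoderm list went the other way, at 723, 778 and 774 at day 2 and 652, 657 and 684 at day 4. The median log2 change of its tested members was 0.20. Of 11 endoderm genes tested 3 were higher (27.3%, against 3.6% of all genes) and 1 was lower. Cubn and Pdgfra, counted among the higher, reached 10 normalized counts at day 4 alone. Of the other 9, 1 was higher and 1 lower.

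Some signalling genes were lower and others higher. FGF and ERK targets, which report growth factor signalling, had 4 lower (28.6%, against 4.79% of all genes) and 1 higher of 14 tested. Their median was -0.35. Myc reached 10 normalized counts only at day 2 and Spry1, the 1 higher gene, only at day 4, so they had to be lower and higher, and 3 of the other 12 were lower. Against the day 2 mean, the list's median was -0.48 and -0.33 in day 4 replicates 1 and 2 and 0.07 in replicate 3, and the list's median change was -0.22 without day 4 replicate 1. Dusp6, a phosphatase that ERK induces and that acts back on ERK, stood at 292.8, 327 and 299 normalized counts at day 2 and at 89.0, 121 and 132 at day 4 (log2 change -1.44 ± 0.17, adjusted p = 7.01e-05). Dusp4, a nuclear relative, stood at 38.1, 48.8 and 46.5 at day 2 and at 11.7, 12.2 and 25.7 at day 4 (log2 change -1.46 ± 0.27, adjusted p = 0.00281). Neither gene overlapped between days, although Dusp4 was highest in day 4 replicate 3. Ccnd1 (cyclin D1) and Myc were lower too (log2 changes -0.98 and -1.17), Myc with adjusted p of up to 0.0781 with 1 library left out. Dusp9, a cytoplasmic phosphatase of ERK that is not on the list, went the other way, from 47.6, 49.0 and 59.6 to 188, 154 and 138 (log2 change 1.60 ± 0.17, adjusted p = 2.59e-05).

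The TGF-beta, Nodal and BMP list held pathway members as well as targets. Of 14 tested, 4 were higher (28.6%, against 3.6% of all genes) and 1 was lower, with a median of 0.27. Among the 12 that did not reach 10 normalized counts on 1 day only, 3 were higher and 1 was lower. Id3, an inhibitor of differentiation that BMP induces, stood at 12.9, 13.6 and 11.97 normalized counts at day 2 and at 48.8, 40.1 and 51.1 at day 4 (log2 change 1.78 ± 0.25, adjusted p = 0.000332). Skil, a SMAD corepressor, stood at 253, 263 and 276 at day 2 and at 533, 583 and 563 at day 4 (log2 change 1.08 ± 0.13, adjusted p = 0.000115). Id2 rose from 2.24, 2.27 and 2.85 to 27.9, 20.5 and 13.4, having passed the filter through day 4 alone. All 3 genes had groups without overlap, and each, with Tgfbr1 (log2 change 0.84), kept its call with each library left out. Sgk1, a kinase on the LIF and STAT3 list, was lower (log2 change -1.12 ± 0.17, adjusted p = 0.000573). That list had 2 lower of 15 tested (13.3%, against 4.79% of all genes).

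Several actin genes were lower. Of 21 tested cytoskeleton genes and YAP targets 7 were lower (33.3%, against 4.79% of all genes). Of these 7, 4 kept the call with each library left out, and limma-voom called 3 members of the list lower. The list's median log2 change of -0.37 became -0.16 without day 2 replicate 3 and -0.25 without day 4 replicate 1. Flna, filamin A, which crosslinks actin, stood at 333, 287 and 307 normalized counts at day 2 and at 164, 147 and 139 at day 4 (log2 change -1.04 ± 0.13, adjusted p = 0.000145). Actg1, cytoplasmic gamma actin, stood at 517, 534 and 629 at day 2 and at 269.5, 328 and 116 at day 4 (log2 change -1.36 ± 0.30, adjusted p = 0.00941). Actb, beta actin, stood at 1750.1, 1615 and 1595 at day 2 and at 1097, 994 and 873 at day 4 (log2 change -0.75 ± 0.18, adjusted p = 0.014, and 0.0572 without day 2 replicate 1). The day 4 libraries were below all day 2 libraries for the 3 genes, and replicate 3 was the lowest of them. Their day 6 means (401, 754 and 2134) were above their day 2 means (309, 559.8 and 1654).

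The remaining large changes fell outside the lists' main themes. H2-M5, a nonclassical MHC class I gene, stood at 86.2, 73.1 and 86.3 at day 2 and at 18.96, 17.2 and 21.9995 at day 4 (log2 change -2.03 ± 0.21, adjusted p = 2.15e-05). Its groups were well apart, and the mean was 24.3 at day 6, against 103 in the control. The other genes among the 15 largest rises were Rnf19a, Ano3, Ctsl, A930001N09Rik and BC030307 (log2 changes 1.32 to 1.43), and further genes among the 15 largest falls were C030039L03Rik, Rinl, Zfp532 and Med22 (-2.21 to -1.36). Each gene named from these largest rises and falls kept the call with each library left out and by limma-voom.

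**Figure D5:**
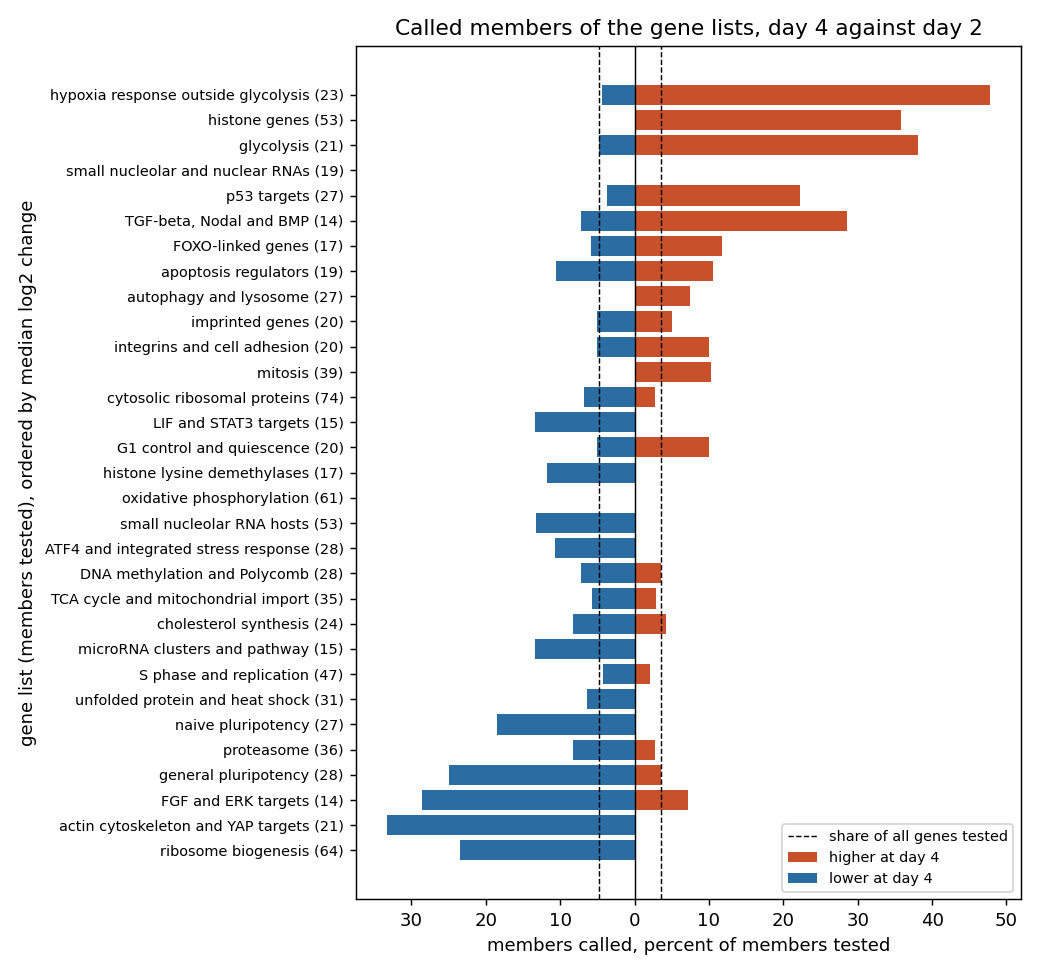
Percent of the tested members of each list called higher (orange, right) and lower (blue, left) at day 4, for lists with at least 14 tested members, ordered by median log2 change. Dashed lines mark the share of all genes tested, 3.6% higher and 4.79% lower; hypoxia response genes head the plot and ribosome biogenesis genes are at its foot.

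Among proteins reported to bind TUNA, Hnrnpk (log2 change 0.14 ± 0.18, adjusted p = 0.685) and Ptbp1 (-0.66 ± 0.23, adjusted p = 0.0864) were not called, while Ncl fell as given above. Cholesterol synthesis genes, of 24 tested, had 1 higher (4.17%, against 3.6% of all genes) and 2 lower (8.33%, against 4.79%). Scd2, a fatty acid desaturase, rose (log2 change 1.07, adjusted p = 0.00144) and Ebp, a sterol isomerase, fell (-1.60, adjusted p = 0.00435). Ebp reached 10 normalized counts at day 2 alone and so had to be lower at day 4. Cs, citrate synthase, the entry enzyme of the TCA cycle, was lower (-0.82, adjusted p = 0.00171), as were Psmc4, a proteasome ATPase (-0.95, adjusted p = 0.0026), and Calr, a chaperone of the endoplasmic reticulum (-0.64, adjusted p = 0.00644).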

How the data were processed

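The authors deposited 1 table on a log2 scale of normalized counts. Per the submitters' processing notes, BWA, DESeq and the mouse build mm9 were used, with no version or role given. The lowest value, 0, stands for 1 normalized count or less. The log2 was undone to give normalized counts, and a deposited 0 was kept as 0. The median step between each library's most common values above 0 gave its read worth, and with it the depth. Among values under 20 reads, 44.3% to 56.7% came within 0.02 of a whole number of reads. The values are therefore not whole reads, and the main fit used no count test. Limma-voom, an alternative here, was run on the values divided by the read worth, without rounding.

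Genes with 10 normalized counts in at least 3 of the 6 libraries (8017) were fitted as log2(value + 1), which understates changes of low genes, with limma 3.58.1 in R 4.3.3. The fit took all 12 libraries, with 1 coefficient for each group, a variance trend on intensity, 8 residual and 8.95 prior degrees of freedom, and was tested on simulated data. P-values were adjusted by Benjamini-Hochberg, with a threshold of 0.05. Each adjusted p of a gene comes from this fit, and ± beside a log2 change is its SE. The genes named were the 15 largest rises and falls with a mean of 50 or more and no overlap, up to 6 members of each of 42 lists with the smallest p, fixed anchors, and members that complete a role. 1 gene that this rule picks is not reported here. The members and lists were chosen with earlier results of these data known. Alternatives were other scalings, filters and pseudocounts, limma-voom on the recovered reads, a fit of only the 6 libraries, a replicate block, and leaving out each library.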

Additional observations from a re-analysis of the deposited data

How the results depend on the processing

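The numbers of genes higher (289) and lower (384) stayed within 1.5 times under the other scalings, filters and pseudocounts tried and with only the 6 libraries fitted. They moved to 104 and 101 by limma-voom on the recovered reads and to 94 and 137 at a threshold of 0.01. With single libraries left out they ranged from 144 to 273 and from 188 to 467. Histone genes higher (19) moved to 4 by limma-voom and 5 at 0.01, with a range of 6 to 31, and ribosome biogenesis genes lower (15) to 5 and 7, with a range of 7 to 14. Low oxygen genes higher (11) ranged from 8 to 10 and glycolysis genes higher (8) from 8 to 9. No named gene that was called turned its direction under any setting in which it was tested (79 of 87 were tested with the filter at 20, and 82 without small nucleolar RNA hosts and small nuclear RNAs), and 60 of the 87 were also called by limma-voom. Bak1 was not counted among these named genes. The cause of these moves was not tested, apart from the fewer samples when a library is left out.

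A fit with the replicate number as a block gave 256 higher and 341 lower genes, of which 246 and 326 were among the calls without it. Same-numbered day 2 and day 4 libraries had deviations from their group means that correlated at 0.12, 0.034 and 0.13. Libraries of different numbers correlated at -0.126 to 0.0344. The labels do not say what a shared number stands for, and whether it marks a shared culture or batch was not tested. With 936427 to 2024934 reads outside 3 rows per library, a gene at 10 normalized counts rests on few reads, and intervals cover only the spread between these libraries.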
